A study of Homo sapiens with 8 samples.

Results

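The genes described here are 10 members of the Hippo pathway and targets of its effectors, the co-activators YAP1 and WWTR1 (also called YAP and TAZ), out of 17649 genes in the expression table. They comprise the target genes CCN1, CCN2 and ANKRD1, the feedback regulators AMOTL1, AMOTL2, AJUBA and LATS2, the co-activators YAP1 and WWTR1, and the DNA-binding partner TEAD1. The genes were selected by symbol from results in which their control and CML values had already been seen, so their differences between the groups are a description and carry no p-value. RNA-Seq was performed on MDA-MB-231 cells, an established human breast cancer cell line labelled as estrogen receptor negative. In the first group, cells of 4 samples were exposed to 1 μM carboxymethyllysine (CML), an advanced glycation end product made from lysine and reactive sugars, and in the second group cells of 4 control samples received PBS. All 8 samples were kept for 48 hours at 5 mM glucose, so the comparison asks what CML changes in low-glucose medium. All libraries come from a single cell line, and the labels call them replicates without saying that they were separate cultures, so p-values measure only the spread between these libraries.

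The Hippo pathway is a kinase cascade that senses cell density, cell shape and tension. Its kinases, which include LATS2, phosphorylate YAP1 and WWTR1 and keep them in the cytoplasm, where they are retained or degraded. When the cascade is quiet, YAP1 and WWTR1 enter the nucleus, bind transcription factors of the TEAD family and switch on genes such as CCN1, CCN2 and ANKRD1. This control acts largely on protein location and stability, which mRNA levels do not show.

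Values are CPM, read counts scaled for library size with edgeR. Their sum per library ran from 986730 (control replicate 2) to 1014120 (CML replicate 2), so the libraries do not share 1 common sum. The estimated depth was between 16161802 and 18954733 reads per library, with 0.0535 to 0.0622 CPM for each read. Across all genes, limma's comparison of log2(CPM + 1) called 158 genes at an adjusted p under 0.3, of which 119 were higher and 39 lower with CML, and it called 0 at 0.05, whereas 1352 had an unadjusted p under 0.05. When the 763 genes at 0 in all libraries were left out of that fit, 102 genes were called, 81 of them higher, and 2 at 0.05. Leaving out any 1 library moved the count of 158 by over 1.5 times, from 20 without CML replicate 2 to 690 without control replicate 4. The share called higher was 75.3%, against 63.0% when libraries were centred on their medians, 62.5% after quantile normalization and 63.7% once GC content and transcript length were removed. Of the markers of the line, VIM averaged 4068 CPM, FN1 2020.1, CD44 832 and CAV1 146 in control cells, while SPARC, listed with them, was at only 0.237 CPM. PGR and CDH1 were near 0 at 0.028 and 0.740 CPM in control cells, and ESR1 was not among the genes of the expression table. Of the others listed as low in this line, GATA3 was at 4.96 CPM and EPCAM at 14.2 CPM. The keratins KRT8 (213 CPM) and KRT18 (329.7 CPM), listed with them, were not low. Of 12 markers of other cell types, PTPRC (leukocytes) was at 0.475 CPM and COL1A1 (fibroblasts) at 10.5 CPM, whereas CD68, a lysosomal protein that many cell lines express, was at 172 CPM.

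TEAD factors bind the letters GGAATG, and the upstream sequences of the genes that differed most between the groups, CCN2 and ANKRD1, are shown together with those of AMOTL2 and YAP1, as examples of 2 genes whose groups overlapped and which hold the same letters. Each is the 250 bases before the gene's start, 5′ to 3′ on the gene's strand, from RefSeq annotation of GRCh38.p14. Capitals mark GGAATG on either strand (read as CATTCC on the other strand) and, in ANKRD1, also the AP-1 motif TGANTCA. The windows lie at chr6:131951373-131951622 (minus strand, CCN2), chr10:90921088-90921337 (minus strand, ANKRD1), chr3:134374448-134374697 (minus strand, the second AMOTL2 start) and chr11:102110197-102110446 (plus strand, YAP1).
CCN2: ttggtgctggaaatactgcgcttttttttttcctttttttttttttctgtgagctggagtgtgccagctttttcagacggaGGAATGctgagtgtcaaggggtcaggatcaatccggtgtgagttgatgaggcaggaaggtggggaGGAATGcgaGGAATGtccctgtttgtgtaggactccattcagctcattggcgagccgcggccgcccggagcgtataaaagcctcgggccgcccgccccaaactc
ANKRD1: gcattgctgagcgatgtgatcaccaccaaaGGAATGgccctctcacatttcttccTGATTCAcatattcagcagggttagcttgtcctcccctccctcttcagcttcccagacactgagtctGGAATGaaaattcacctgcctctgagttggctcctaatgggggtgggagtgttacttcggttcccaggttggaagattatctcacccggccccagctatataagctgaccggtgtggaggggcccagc
AMOTL2: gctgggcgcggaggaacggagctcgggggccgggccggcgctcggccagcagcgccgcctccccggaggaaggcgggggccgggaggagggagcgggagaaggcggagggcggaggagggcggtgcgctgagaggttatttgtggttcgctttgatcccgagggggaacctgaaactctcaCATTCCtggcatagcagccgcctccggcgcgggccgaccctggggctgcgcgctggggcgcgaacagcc
YAP1: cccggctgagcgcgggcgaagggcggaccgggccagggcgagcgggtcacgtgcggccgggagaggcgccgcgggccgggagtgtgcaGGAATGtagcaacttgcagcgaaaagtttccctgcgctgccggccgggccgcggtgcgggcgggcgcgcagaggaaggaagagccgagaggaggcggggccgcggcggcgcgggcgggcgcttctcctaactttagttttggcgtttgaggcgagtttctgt
The CCN2 window held 3 TEAD motifs, which began 169, 104 and 95 bases before the start. The ANKRD1 window held 2, at 220 and 128 bases before the start, with the AP-1 motif between them at 195 bases. AMOTL2 held 1 at 69 bases on the opposite strand, and YAP1 held 1 at 162 bases. Of the windows not shown, 1 of AJUBA held 1 at 59 bases before the start and LATS2 held 1 just after the start, whereas the other windows of AJUBA and AMOTL2, both windows of WWTR1 and that of AMOTL1 held none. With 50 bases after the start included, 11 windows matched 8 of the 10 genes, and 6 of them held GGAATG, against 14.03% of the 35116 windows of all genes. The AP-1 motif was found in 1 of the 11, against 7.71% of all windows. CCN1 and TEAD1 had no matching window. A match in these letters is a description and not a binding site.

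Of the target genes, CCN2, CCN1 and ANKRD1 were higher in each of the 4 CML libraries than in any control library, and their group means differed by 8.01% to 14.5% on the CPM scale. CCN2, also known as connective tissue growth factor, is a secreted matricellular protein (ENSG00000118523.6, chr6:131948176-131951372). It was measured at 259.9, 260.1, 255 and 268 CPM in controls 1 to 4 and at 296, 294, 302 and 301 CPM in CML libraries 1 to 4. The lowest exposed library thus lay above the highest control. The mean went from 261 ± 5.25 to 298 ± 3.84 CPM (SD, n = 4), a difference of 0.19 on the log2(CPM + 1) scale with a 95% interval from 0.13 to 0.25. CCN2 was the member with the largest difference, and it passed the 0.3 threshold in 20 of 20 fits.

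ANKRD1, a nuclear ankyrin-repeat cofactor best known from muscle (ENSG00000148677.6, chr10:90912096-90921087), was measured at 587, 619, 599.7 and 625 CPM in the controls and at 676, 694, 683 and 704 CPM with CML. The groups were separated by more than the range within either of them. Its mean went from 607 ± 17.4 to 689 ± 12.02 CPM (SD, n = 4), and the log2 difference was 0.18, with an interval from 0.12 to 0.25. The call was lost in 1 of 20 fits, the one without CML replicate 2, in which the 8 libraries become 7.

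CCN1, also known as CYR61, is a matricellular protein related to CCN2 (ENSG00000142871.17, chr1:85580761-85583950). It was measured at 824, 824, 818 and 813 CPM in the controls and at 882, 896, 905 and 857 CPM with CML. All exposed libraries lay above the controls, but they spread more widely than the controls did. The mean went from 819 ± 5.26 to 885 ± 20.8 CPM (SD, n = 4), a log2 difference of 0.11 with an interval from 0.05 to 0.17. CCN1 was called in 11 of 20 fits only. It was not called when the genes at 0 were left out, under median centring or quantile normalization, or without control replicate 1, 2 or 3 or CML replicate 1, 2 or 3.

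**Figure D1:**
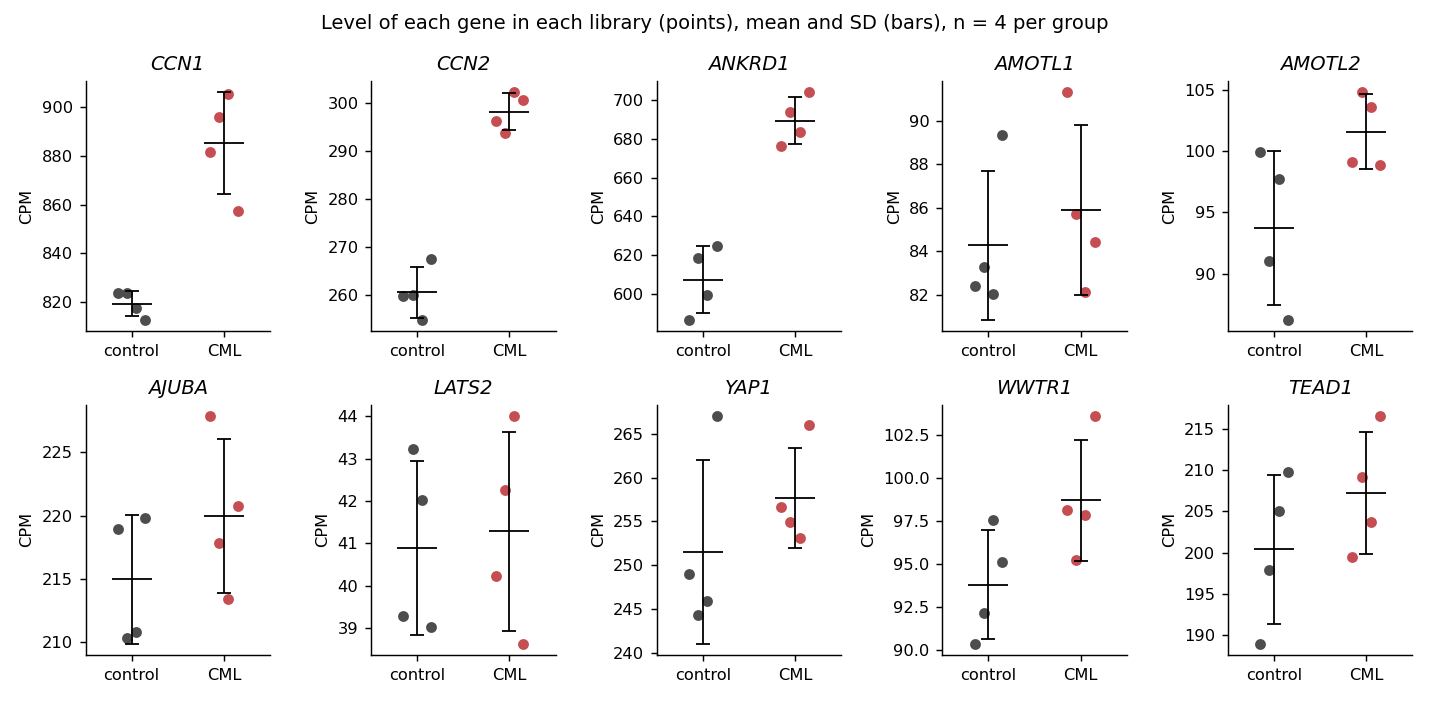
CPM of the 10 genes in each library, with 1 panel per gene, control libraries in grey and CML libraries in red, and bars for the mean and SD (n = 4 per group). The vertical axes do not start at 0. The groups do not overlap for CCN1, CCN2 and ANKRD1, and they overlap for the other 7 genes.

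Ratios within a library do not depend on how libraries were scaled to each other, so the 3 targets were also divided by YAP1. The ratio of CCN2 to YAP1 was between 1.00 and 1.06 in the controls and between 1.13 and 1.19 with CML. The ratio of ANKRD1 to YAP1 was between 2.34 and 2.53 in the controls and between 2.64 and 2.72 with CML. Neither range overlapped between the groups. The ratio of CCN1 to YAP1 ran from 3.04 to 3.37 in the controls and from 3.22 to 3.58 with CML, and these ranges overlapped. Control replicate 4 and CML replicate 4 held the lowest ratio of their groups.

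**Figure D2:**
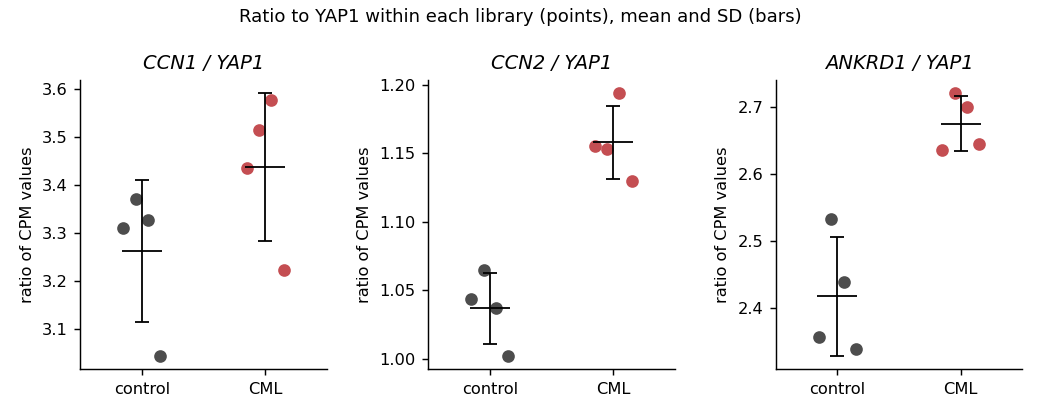
Ratio of the CPM of CCN1, CCN2 and ANKRD1 to that of YAP1 in the same library, with points for libraries and bars for the mean and SD (n = 4 per group). The vertical axes do not start at 0. The groups are apart for CCN2 and ANKRD1 and overlap for CCN1.

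None of the feedback regulators separated the groups. AMOTL2, an angiomotin family scaffold that binds YAP1 and is itself a YAP target (ENSG00000114019.14, chr3:134355345-134375417), was at 99.9, 91.0, 97.7 and 86.2 CPM in the controls and at 99.1, 105, 104 and 98.9 CPM with CML. Only control replicate 1 reached into the exposed range, and 2 of 4 exposed libraries lay above every control. The log2 difference was 0.12, with an interval from 0.01 to 0.22, which is about that of CCN1 with a wider interval, and AMOTL2 was called in 2 of 20 fits, both with GC content and transcript length removed. Its values were not whole numbers of reads in 3 of 8 libraries, unlike those of the other 9 genes.

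AMOTL1, the related scaffold (ENSG00000166025.18, chr11:94706460-94876748), ranged from 82.1 to 89.4 CPM in the controls and from 82.2 to 91.3 CPM with CML. AJUBA, a LIM-domain protein that binds and restrains LATS kinases (ENSG00000129474.16, chr14:22971177-22982551), ranged from 210.3 to 219.8 CPM and from 213 to 228 CPM. LATS2, the kinase that phosphorylates YAP1 and WWTR1 and is itself induced by them (ENSG00000150457.9, chr13:20973036-21061586), ranged from 39.0 to 43.2 CPM and from 38.6 to 44.001 CPM. The groups overlapped for all 3 genes. The log2 differences were 0.03 for AMOTL1 (interval -0.07 to 0.12), 0.03 for AJUBA (-0.04 to 0.10) and 0.01 for LATS2 (-0.10 to 0.13), and the sign was positive in 19, 20 and 15 of 20 settings. AMOTL1 turned negative (-0.0025) without CML replicate 1, and LATS2 turned negative under median centring, under quantile normalization, and without control replicate 1, control replicate 4 or CML replicate 3.

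The effectors themselves also overlapped between the groups. YAP1 (ENSG00000137693.14, chr11:102110447-102233424) was at 249, 244, 246 and 267 CPM in the controls and at 257, 255, 253 and 266 CPM with CML. Control replicate 4 was the highest of all 8 libraries, so 0 of 4 exposed libraries lay above the controls. The log2 difference was 0.04, with an interval from -0.04 to 0.11.

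WWTR1, which encodes TAZ (ENSG00000018408.14, chr3:149517235-149724788), was at 90.4, 92.2, 97.5 and 95.1 CPM in the controls and at 98.1, 95.2, 97.9 and 103.6 CPM with CML. All but CML replicate 2 lay above the highest control, although by a small margin. The log2 difference was 0.07 (interval -0.01 to 0.16). TEAD1, the TEAD family member with the highest level here (ENSG00000187079.17, chr11:12674421-12944737), was at 189, 198, 205 and 209.7 CPM in the controls and at 199.5, 209, 204 and 217 CPM with CML. Only CML replicate 4 exceeded every control, and the log2 difference was 0.05 (interval -0.04 to 0.13).

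**Figure D3:**
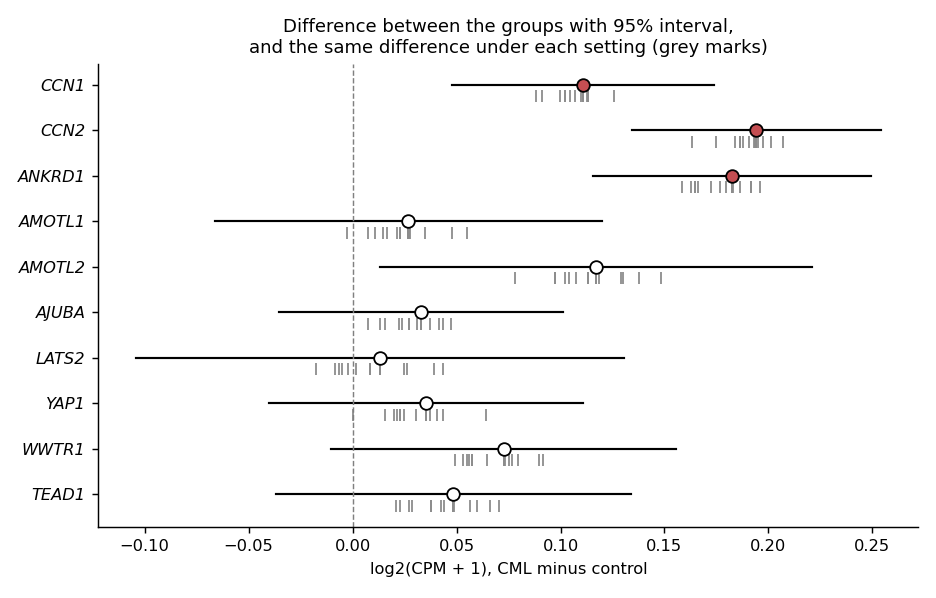
Log2(CPM + 1) in CML minus control libraries for each gene (points), with the 95% interval from the fit without genes at 0 in all libraries (lines) and the values under each of 20 settings (grey marks). Red points were called at an adjusted p under 0.3 in the fit across all genes. The intervals of CCN1, CCN2, ANKRD1 and AMOTL2 lie above 0, which is not a test, since the genes were chosen with these values seen.

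As a group, 3 of 10 genes were called higher (2 without the genes at 0, where CCN1 was lost, and 1, CCN2, without CML replicate 2), while 0.674% of all genes and 1.10% of the 6255 genes with at least 30 CPM were called higher, and 0.480% of all genes without those at 0. Every exposed library lay above every control in 3 of 10, against 2.50% of all genes and 3.80% of those with at least 30 CPM. The mean was higher in 10 of 10, against 66.3% of genes with at least 30 CPM, and the median log2 difference was 0.06 (range 0.01 to 0.19), against 0.02. Under median centring and quantile normalization the mean was higher in 9 of 10, LATS2 being lower, and the median was 0.04. The share of all genes was not computed under those scalings, so the 66.3% does not apply to them. Since the genes were chosen from this comparison, these shares are only set side by side. Markers of proliferating cells differed between the same libraries. Of 30 such genes, 11 were called higher and 0 lower (12 and 0 without the genes at 0), the means of all 30 were higher, and their median log2 difference was 0.22 (0.20 under both other scalings). The 11 became 6 without control replicate 2, 18 without control replicate 4, 3 without CML replicate 2 and 5 without CML replicate 3. Their summed level was between 1396 and 1473 CPM in the controls and between 1636 and 1673 CPM with CML, with MKI67, a marker of cycling cells, at 124 and 152 CPM (limma's adjusted p = 0.0856), UBE2C, a ubiquitin enzyme of mitosis, at 36.3 and 44.04 CPM (adjusted p = 0.0856), and CCNA2, the S-phase cyclin, at 32.2 and 41.6 CPM (adjusted p = 0.0897). No marker was at 0. The part of this shift in the values of the 10 genes was not tested, and in bulk RNA fewer or more cells of a kind and less or more RNA per cell cannot be told apart.

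The levels of the 10 genes in control cells, per kilobase of transcript, spanned from 359.7 for CCN1 to 7.37 for LATS2. ANKRD1 followed CCN1 at 339, and CCN2 was at 111 CPM per kilobase. Together with AJUBA at 51.6 and YAP1 at 46.6, the ranges of neighbours in this order did not overlap down to TEAD1. TEAD1 (21.3), AMOTL2 (19.3) and WWTR1 (18.6) formed a run in which neighbouring ranges overlapped, and AMOTL1 (9.39) and LATS2 (7.37) came last with ranges that did not. Per kilobase, YAP1 was thus at a higher level than WWTR1 in control cells. Of the TEAD family, TEAD1 was the highest, followed by TEAD3 (14.5), TEAD4 (10.6) and TEAD2 (3.32), with no overlap between any of the 4 ranges. LATS1 (6.76), the other LATS kinase, had a range that overlapped that of LATS2. Among genes with a length and a mean of at least 0.5 CPM, CCN1 and ANKRD1 lay at percentiles 98.9 and 98.8, and LATS2 at 50.6.

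**Figure D4:**
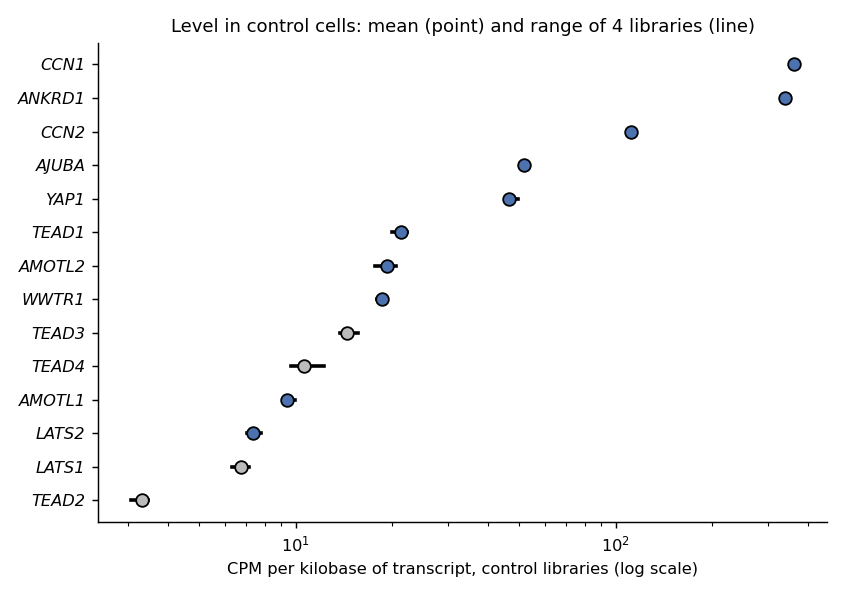
CPM per kilobase of transcript in control cells on a log scale, with points for the mean and lines for the range of 4 libraries, in blue for the 10 genes and in grey for relatives of TEAD1 and LATS2. CCN1 and ANKRD1 are at the top and TEAD2 is at the bottom.

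Replicates of CCN1 and CCN2 were tight, and those of ANKRD1 less so. The genes were chosen with these values known, so their spread is a description too. The SD of log2(CPM + 1) within groups was 0.02 for CCN1 and CCN2, and 95.3% and 96.3% of the genes within a factor of 1.5 of their level had a larger SD. For ANKRD1 the SD was 0.03, and 79.0% of similar genes had a larger one. For AMOTL2 the SD was 0.07 and 30.8% of similar genes had a larger one. The scatter exceeded what counting reads alone gives for every gene, from 1.16 times for CCN2, which rests on 4215 to 5493 reads per library, to 2.48 times for ANKRD1, which rests on 9840 to 12965. LATS2 had the fewest reads, 621 to 790 per library. Once group means were removed, values across the 8 libraries correlated from r = -0.83 (AJUBA and LATS2) to r = 0.79 (ANKRD1 and TEAD1), which is a description over libraries that share depth and scaling. AJUBA overlaps on its own strand an annotated gene that was also measured, at 3.90 CPM in the controls and 4.26 CPM with CML, and reads of the 2 could be split in counting.

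None of the other genes of the pathway was called in the main fit. Of the 14090 genes that reached 0.5 CPM, 111 were called higher and 30 lower. At that share, lists this short would hold few calls or none, so the lack of calls is not a result about the pathway. Of 46 kinases and upstream regulators, 42 reached 0.5 CPM, and 0 were called in either direction, with 4 at an unadjusted p under 0.05 and a median log2 difference of 0.02, against 0.01 over the 14090 genes that reached 0.5 CPM. An unadjusted p under 0.05 was found for 8.30% of those 14090 genes, against 9.52% of this list. The means of 27 were higher, but of 18 under median centring, where the median turned to -0.0042. Without control replicate 4, 3 were called, FRMD6, MAP4K5 and STRN3, in a fit that called 690 of all 17649 genes, 536 of them higher. In this list FRMD6, an upstream activator of the cascade, was at 561 ± 15.02 and 610.2 ± 20.1 CPM (limma's adjusted p = 0.369). WWC1, the scaffold KIBRA, was at 85.7 ± 3.00 and 94.1 ± 3.25 CPM (limma's adjusted p = 0.375). For both genes every exposed library lay above the controls, by a margin that did not pass the threshold across all genes. They were the only 2 of the 42 genes separated in this way, against 413 of the 14090 genes. The abundant FAT1, an atypical cadherin, was at 966 and 996 CPM, and the kinase MAP4K4 at 539 and 541 CPM.

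Of 23 nuclear and cytoplasmic partners of YAP1 and WWTR1, 20 reached 0.5 CPM and 0 were called, with 4 (20%, against the 8.30% above) at an unadjusted p under 0.05 and a median of 0.02. FOSL1, an AP-1 subunit that acts with YAP1 and TEAD factors on enhancers, was at 285 ± 8.996 and 301 ± 4.54 CPM (limma's adjusted p = 0.488), with every exposed library above the controls. VGLL4, which competes with YAP1 for TEAD factors, was at 54.8 ± 1.19 and 52.0 ± 1.43 CPM (limma's adjusted p = 0.533), with every exposed library below the controls. Neither passed the threshold. Of the 20 genes, 2 had every exposed library above the controls and 1 had every one below, against 413 and 187 of the 14090 genes. TEAD3, the relative of TEAD1 nearest to it in level, was at 43.4 and 42.3 CPM, and the abundant YWHAZ, a 14-3-3 protein that holds phosphorylated YAP1 in the cytoplasm, was at 1519 and 1562 CPM.

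Of 17 other genes known as YAP/TAZ targets, all 17 reached 0.5 CPM, 12 had a higher mean with CML and 0 were called, with 2 (11.8%) at an unadjusted p under 0.05 and a median of 0.04. Without control replicate 4, 2 were called, ASAP1 and CRIM1, in the fit that called 690 of all 17649 genes. NUAK2, a kinase that feeds back on YAP activity, was at 7.001 ± 0.55 and 8.76 ± 1.09 CPM (limma's adjusted p = 0.509), a log2 difference of 0.28. TGFB2, a growth factor, was at 74.0 ± 3.34 and 79.9 ± 2.86 CPM (limma's adjusted p = 0.554). The groups overlapped for NUAK2 and did not for TGFB2, the only 1 of the 17 with every exposed library above the controls. The abundant targets AXL, a receptor tyrosine kinase, and NT5E, the ecto-enzyme CD73, were at 1186 and 1226 CPM and at 719 and 723 CPM. Of 13 paralogs of the 10 genes, 7 reached 0.5 CPM and 0 were called (1, or 14.3%, at an unadjusted p under 0.05), 2 had a higher mean with CML, and their median was -0.03. The TEAD genes, LATS1, LIMD1, WTIP and AMOT are in this list and in another one, and PTPN14 is both among the upstream regulators and among the other targets. Among them CCN3, the relative of CCN1 and CCN2, was at 49.4 and 48.6 CPM. LIMD1, a relative of AJUBA that is also in the list of upstream regulators, was at 64.6 and 60.4 CPM.

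**Figure D5:**
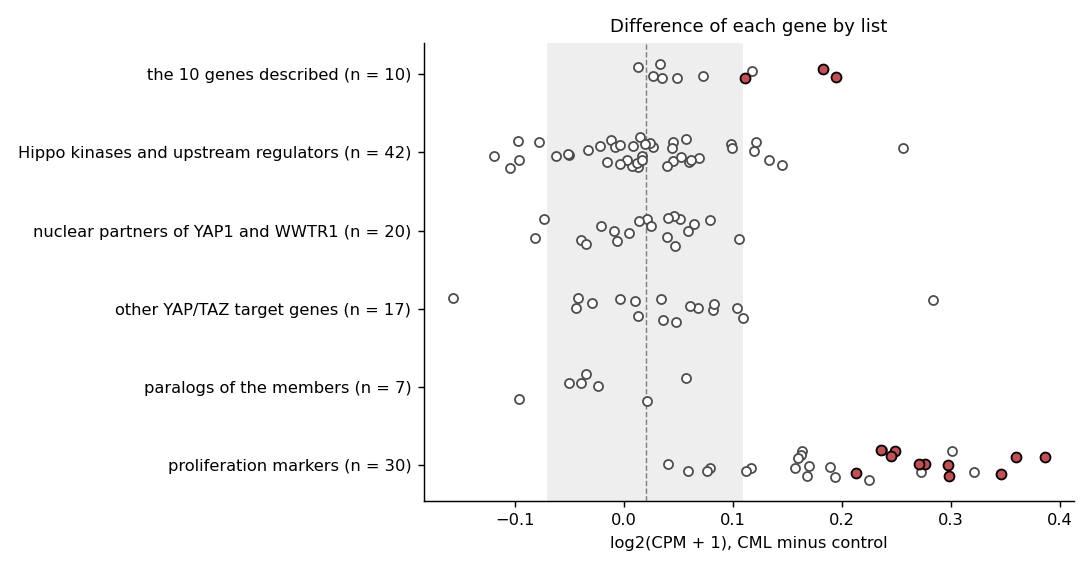
Log2(CPM + 1) in CML minus control libraries for each gene by list, with red points for genes called at an adjusted p under 0.3 and open points for the rest, and vertical jitter only to part the points. The grey band runs from the 5th to the 95th percentile of genes with at least 30 CPM and the dashed line is their median of 0.02. Called genes appear among the 10 genes and among the proliferation markers.

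The mean z-score of the 10 genes was between -0.80 and -0.15 in the controls and between 0.43 and 0.63 with CML. Among 10759 other genes with at least 5 CPM, the 5 whose log2 values over the 8 libraries were most like it were TYMS (r = 0.98), RACGAP1 (r = 0.98), TCF12 (r = 0.98), PLK4 (r = 0.98) and MKI67 (r = 0.98), and 117 had an r above 0.9. TYMS, which makes thymidylate, was at 24.7 and 31.7 CPM, and RACGAP1, a cytokinesis protein, was at 41.8 and 48.6 CPM. These r values describe libraries that differ by group, so that any gene with a clear group difference in the same direction has a high r.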

How the data were processed

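RNA-Seq of 4 control and 4 CML-exposed MDA-MB-231 samples was analysed from the table that the authors deposited, which holds CPM values, 1 column per library, scaled with edgeR per the labels' processing notes. These notes name hg38. The paper's methods name TopHat and the older build hg19 in a passage headed for tumors, xenografts and cultured cells, which describes tumor libraries. The passage on the CML experiment names no aligner, and no source used here gives the counting tool, so the aligner and build behind these values are uncertain. Groups and replicate numbers came from the sample titles, and dose, time and glucose level from the labels and the paper's methods. For the sequencer, the labels give NextSeq in 1 field and HiSeq in another. All value columns were used. Of 17681 rows, those of 32 symbols with several rows were averaged, which left 17649 genes.

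Values fell on steps that gave estimated reads (16161802 to 18954733 per library). Because 86.2% to 87.2% of values above 0 were whole within 0.05 reads, no count test was run.

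Groups were compared on log2(CPM + 1) with limma 3.58.1 in R 4.3.3, 2-sided, with a variance trend. P-values were adjusted after Benjamini-Hochberg across the whole table, with thresholds of 0.3 and 0.05. A test on simulated data called, on average, a larger share of unchanged genes than the threshold allows while the 763 genes at 0 in all libraries were in the fit, and a smaller share when they were left out. Both fits are therefore given, and intervals (95%) come from the fit without them. Other alternatives were a replicate block, a pseudocount of 0.1, a minimum of 1 CPM, separate rows, median centring, quantile normalization, no variance trend, removal of GC content and length, and each library left out. Lengths and GC content came from GENCODE 44, gene positions and promoters from RefSeq (GRCh38.p14). Plots used Python 3.11.15 and matplotlib 3.10.9.

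The 10 genes and the lists were chosen with earlier results of these data known. All 10 are named, and of each list every called gene or the 4 with the smallest p and the 3 with the highest CPM could be named, with all TEAD genes, all cell type markers and the 5 most similar patterns. MAP4K5, MINK1, RASSF1, ASAP1, AMOT, WTIP, PTPN14, YWHAQ and F3 were named after their values were seen.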

Additional observations from a re-analysis of the deposited data

Results flagged for a closer look

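AMOTL1 was at 89.4 CPM in control replicate 4, apart from the other 3 control libraries at 82.1 to 83.3 CPM by more than Dixon's 95% critical value allows for 4 samples. Of 20 groups looked at this way, 2 per gene, this was the only 1, and chance gives about 1. Without that library the log2 difference of AMOTL1 was 0.05 in place of 0.03.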

How the results depend on the processing

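The difference of every one of the 10 genes kept its sign in all 20 settings, except for AMOTL1 and LATS2. CCN2 was called in 20, ANKRD1 in 19, CCN1 in 11 and AMOTL2 in 2 of 20 fits, and the log2 difference of CCN2 was lowest under quantile normalization, at 0.16. The number of called genes was 158, against 102 without genes at 0 in all libraries, 73 under median centring, 855 with GC content and length removed, and between 20 and 690 with 1 library left out. Members called ran from 1 to 3 with 1 library left out.

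With GC content and length removed, 855 of 12978 genes were called, against 158 of 17649, so calls rose across all genes. They covered 5 of 42 upstream regulators, 2 of 20 nuclear partners and 4 of 17 other targets. They also covered 1 of 7 paralogs (LIMD1) and 23 of 30 proliferation markers. In the main fit these counts were 0, 0, 0, 0 and 11. Of the 5 regulators, WWC1, FRMD6 and RASSF1 had higher means with CML, and MINK1 and LIMD1 had lower ones. With a minimum of 1 CPM, 141 genes were called, and 1 upstream regulator (FRMD6) among them. With 1 library left out, the calls ran from 0 to 3 upstream regulators, from 0 to 2 other targets and from 3 to 18 proliferation markers. The cause of these changes was not tested. GC content and length accounted for between 1.46% and 29.2% of a library's deviations from the mean of all libraries, the most in control replicate 4. These deviations include any difference between the groups.

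The replicate numbers were not treated as pairs in the main fit. Same-numbered libraries deviated together with r between -0.06 and 0.33 (mean 0.11). For libraries with different numbers r was between -0.30 and 0.11 (mean -0.04), so some pairing is not excluded. With a replicate block, 189 genes were called, and 1 upstream regulator (WWC1), 1 partner (YWHAQ) and 1 other target (F3). The block gave 271 genes and 2 upstream regulators without genes at 0. With GC content and length removed it gave 889 of 12978 genes, 5 upstream regulators, 2 partners, 4 other targets, 1 paralog and 23 proliferation markers. The fits without genes at 0 were chosen after seeing the data. No count test was run on the estimated reads, as they were not nearly all whole. With 4 libraries per group, the intervals of 6 genes (AMOTL1, AJUBA, LATS2, YAP1, WWTR1 and TEAD1) include 0. For these genes neither the absence of a difference nor a difference within the interval is excluded.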
